A study of Mus musculus with 2 samples.

Results

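A set of 10 genes listed as targets of YAP, TAZ and TEAD was described across a list of KMT2D binding sites in HT22 cells. YAP and TAZ are transcriptional coactivators, and the TEAD family are their DNA-binding partners. HT22 is a mouse cell line derived from hippocampal neurons. A YAP/TAZ target signature used below holds 7 of the 10 genes, and their response to YAP was not measured here. The 10 genes were Ankrd1, Ccn1, Ccn2, Amotl1, Amotl2, Ajuba, Asap1, Lats2, Tead1 and Axl, out of 21774 protein-coding genes on the main chromosomes. They were named with the peaks of this list already known, so how many of them carry peaks, and how high those peaks are, is a description and not a test. The study made 1 ChIP-seq library with an antibody to KMT2D and 1 input library without precipitation from the same kind of cells. Both came from a wild-type HT22 clone grown to 70% confluency, and cells without the SET domain of KMT2D, which the study also describes, are not analysed here. The deposited result was 1 list of 3738 peaks called from the ChIP against the input on the mouse build mm10. With 1 library on each side there were no replicates, and intervals below are exact 95% Poisson intervals of the ChIP fragments at a summit given its background, and cover only the error of counting.

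The Hippo pathway is a kinase cascade in which MST kinases activate LATS kinases. The LATS kinases phosphorylate YAP and TAZ, which keeps them out of the nucleus. When the cascade is quiet, as in spread cells under tension, YAP and TAZ enter the nucleus, bind TEAD proteins, and activate genes through promoters and, often, enhancers that lie some distance away. Several of their targets act back on the cascade: LATS2 and the angiomotins restrain YAP, while AJUBA holds LATS kinases back. KMT2D is a methyltransferase of histone H3 lysine 4 that is best known for acting at enhancers.

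A peak was assigned to a gene when its summit lay inside the gene or within 100 kb of it. It was called a gene-end peak when the summit lay within 2 kb of either end of the gene, and distal otherwise. By this rule the 10 genes had 25 peaks, 6 of them at gene ends and 19 distal, and no peak was shared between them. At least 1 peak was found for 8 genes, where 35.8% of all protein-coding genes had one. Gene-end peaks were found for 5 of the 10 (Ankrd1, Ccn2, Amotl2, Ajuba and Asap1), where the share over all genes was 5.08%, and distal peaks for 7 of the 10, where it was 33.7%. Amotl1 and Tead1 had neither.

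Promoter sequence is shown for 4 of these genes because TEAD sites at such promoters are a textbook feature of YAP targets, and because these 4 differ in where KMT2D lay. Ankrd1 and Amotl2 had a KMT2D peak over this stretch, Ajuba had its nearest peak 1841 bp downstream of its start, and Ccn1 had none near its start. Each sequence is the RefSeq promoter window of GRCm38.p6, the assembly that mm10 names, from 250 bases before the transcript start to 50 bases after it, written 5′ to 3′ along the gene. Capitals mark the TEAD core CATTCC or its reverse complement GGAATG. The windows are chr19:36119795-36120094 on the minus strand for Ankrd1, chr9:102717554-102717853 on the plus strand for Amotl2, chr3:145649936-145650235 on the minus strand for Ccn1 and chr14:54577612-54577911 on the minus strand for Ajuba.
Ankrd1: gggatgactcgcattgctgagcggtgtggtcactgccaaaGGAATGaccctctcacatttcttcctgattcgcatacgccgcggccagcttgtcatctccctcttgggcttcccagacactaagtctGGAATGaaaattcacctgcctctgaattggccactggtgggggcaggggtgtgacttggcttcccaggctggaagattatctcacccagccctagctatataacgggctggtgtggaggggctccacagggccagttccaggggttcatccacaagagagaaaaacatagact
Amotl2: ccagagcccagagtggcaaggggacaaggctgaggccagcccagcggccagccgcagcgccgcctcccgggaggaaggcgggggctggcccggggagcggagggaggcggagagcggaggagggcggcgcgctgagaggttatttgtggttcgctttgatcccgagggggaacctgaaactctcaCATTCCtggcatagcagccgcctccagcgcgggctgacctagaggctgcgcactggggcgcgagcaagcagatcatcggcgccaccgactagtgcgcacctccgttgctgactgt
Ccn1: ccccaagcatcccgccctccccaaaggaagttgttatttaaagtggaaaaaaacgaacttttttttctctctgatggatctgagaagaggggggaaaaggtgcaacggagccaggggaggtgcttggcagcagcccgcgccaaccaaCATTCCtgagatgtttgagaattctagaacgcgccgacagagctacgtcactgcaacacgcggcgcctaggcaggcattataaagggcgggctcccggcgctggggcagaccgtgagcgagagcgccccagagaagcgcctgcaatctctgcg
Ajuba: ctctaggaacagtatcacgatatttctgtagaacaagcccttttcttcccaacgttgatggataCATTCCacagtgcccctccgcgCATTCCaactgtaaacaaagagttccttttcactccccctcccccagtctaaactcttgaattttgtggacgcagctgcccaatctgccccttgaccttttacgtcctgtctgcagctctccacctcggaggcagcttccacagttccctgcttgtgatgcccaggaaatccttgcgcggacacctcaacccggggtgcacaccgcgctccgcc

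The TEAD core was found on 1 strand or the other in 6 of the 8 windows that the table holds for these genes, which covered 7 of the 10 genes. Among 21263 windows of protein-coding genes 13.6% held it. The match is a 6-letter one, and TEAD targets are partly known from such sites, so the share describes the genes and says nothing on KMT2D. Ankrd1 and Ajuba each had 2 matches, as 1.14% of all windows did. Ccn1, Amotl2, Lats2 and Axl had 1 each, in Lats2 in the upstream one of its 2 windows, and Amotl1 had none. The only Amotl1 window, chr9:14614951-14615250 on the minus strand, lay well inside the gene, which ends at 14662974. Sequence at that outer end of Amotl1 was not searched. The AP-1 motif TGANTCA, which is its own reverse complement and does not overlap the TEAD core, was found in 0 of the 8 windows and in 6.99% of all. The CArG box bound by SRF, also symmetric, was found in 0 of the 8 and in 1.52% of all.

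A summit fell inside 1 of the 8 windows, that of Amotl2, and inside 1.59% of all. In the 2 printed windows under a KMT2D peak, TEAD matches lay 13 to 136 bp from the summit. A match in a short window under a peak must lie near the summit, so these distances are a description only. In Amotl2 the match began 65 bases before the transcript start and the summit 50 bases before it, so that the centres were 13 bp apart. In Ankrd1 the summit was 256 bases before the start, just beyond the printed window, and the matches were centred 49 and 136 bp from it. The 2 Ajuba matches were about 2 kb from the nearest summit of that gene, at 2002 and 2024 bp, and the Ccn1 match was 35026 bp from its nearest. Over all genes the core was no more frequent at bound promoters, being in 10.7% of 338 windows that held a summit and in 13.6% of the 20925 that did not. Distal peaks could not be searched for motifs because genome sequence was not used here.

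**Figure D1:**
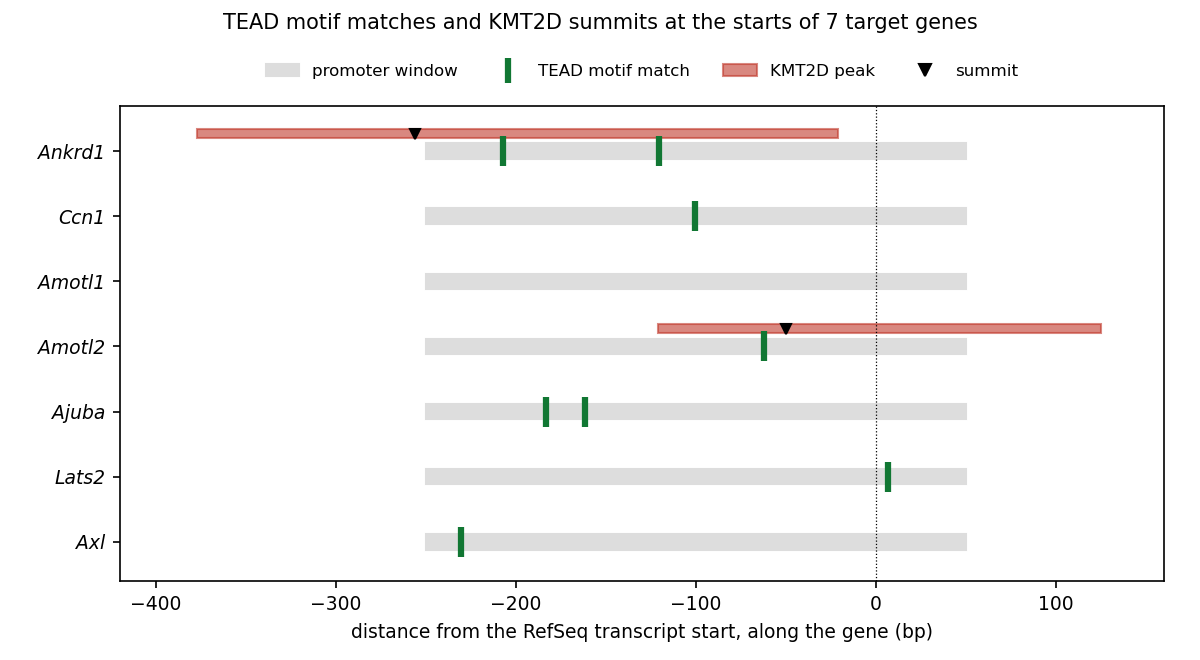
Positions of TEAD core matches (green bars) in the RefSeq promoter windows (grey) of the 7 genes with a window, in bp from the transcript start along the gene, with KMT2D peaks (red) and their summits (triangles); for Lats2 the upstream window of 2 is drawn. Only the windows of Ankrd1 and Amotl2 lie under a peak, and in both a match falls within it. The Amotl1 window lies inside its gene, away from the ends.

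Ankrd1, which encodes a cardiac ankyrin repeat protein induced by stretch and is one of the most used readouts of YAP activity, had the strongest signal of the 10 genes. The gene lies at chr19:36111965-36119844. Its distal peak, chr19:36129104-36129924, had its summit 9549 bp upstream of the transcript start, with 132 ChIP fragments over a background of 7.02. The fold was 16.6 (95% interval 13.9 to 19.6), rank 4 among the 3706 peaks on chromosomes. Its gene-end peak, chr19:36119865-36120221, had 54 fragments over 7.35 and a fold of 6.59 (4.98 to 8.56). The 2 intervals do not overlap, and the backgrounds were close, so the upstream site carried 2.44 times the ChIP fragments of the promoter site. The upstream peak was also the widest of the 25, at 821 bp, where the median of all peaks on chromosomes was 295 bp. No other protein-coding gene lay nearer to either summit, Rpp30 being 24620 bp from the distal one.

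Ccn1 and Ccn2 encode secreted matricellular proteins, known earlier as CYR61 and CTGF, that bind integrins and are induced quickly by YAP and serum signals. The paralogs differed in where the KMT2D peaks lay. Ccn2 (chr10:24595442-24598683) had 1 peak, chr10:24595265-24595471, with its summit 45 bp outside the gene. It held 36 ChIP fragments over a background of 5.18, a fold of 5.99 (4.24 to 8.23). The summit also lay inside Gm15270, a long non-coding RNA gene. Ccn1 (chr3:145646971-145649985) had no gene-end peak. Its 2 distal summits were 35126 and 78552 bp upstream of its start. The nearer one, chr3:145684985-145685222, had 26 fragments over 9.51 and a fold of 2.57 (1.71 to 3.72), among the lowest of the list at rank 3547. The farther one had 20 fragments over 3.16, a fold of 5.05 (3.18 to 7.67), and lay nearer to Ddah1. The lack of a called peak does not show that KMT2D was absent, since the authors' deposited table holds only summits with a −log10 q of at least 1.32.

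Axl encodes a receptor tyrosine kinase of the TAM family that binds GAS6. It had a strong peak within the gene and none at its ends. The gene lies at chr7:25756500-25788924, and the inside peak at chr7:25781573-25782342, with its summit 6872 bp downstream of the RefSeq transcript start. It had 67 ChIP fragments over a background of 5.62 and a fold of 10.3 (7.99 to 13.0), rank 77 of the list. At 770 bp it was the second widest of the 25. The other Axl peak had a fold of 7.82 (5.73 to 10.4), with its summit inside Ccdc97 and 44582 bp from Axl.

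Asap1 encodes an ARF GTPase-activating protein of focal adhesions and invadopodia. It is the longest of the 10 genes, at 296 kb (chr15:64086840-64382941), and had 7 peaks. At 1 end were 2 gene-end peaks 1495 bp apart. One, chr15:64383699-64384184, had a fold of 4.78 (3.43 to 6.49) and its summit 888 bp outside the gene. The other, chr15:64382191-64382838, had a fold of 3.90 (2.81 to 5.28) and its summit 607 bp inside it. The highest peak lay inside the gene 18684 bp from the same end, at chr15:64363966-64364507. It had 89 ChIP fragments over 10.4 and a fold of 7.86 (6.33 to 9.66), whose interval overlaps that of the higher gene-end peak. A group of 3 summits, spaced 3524 and 2883 bp, lay 87985, 91509 and 94392 bp beyond that end, with folds of 4.29, 5.23 and 3.51. The seventh, with a fold of 3.47, lay 80621 bp beyond the opposite end, inside Cyrib. Backgrounds at the 7 Asap1 peaks were high, from 5.88 to 12.5 fragments with a median of 9.94. The 95 peaks of chromosome 15 between 30 and 65 Mb had a median background of 10.3, and peaks outside chromosome 15 one of 6.05. The part of this raised background in the number of Asap1 peaks was not tested.

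**Figure D2:**
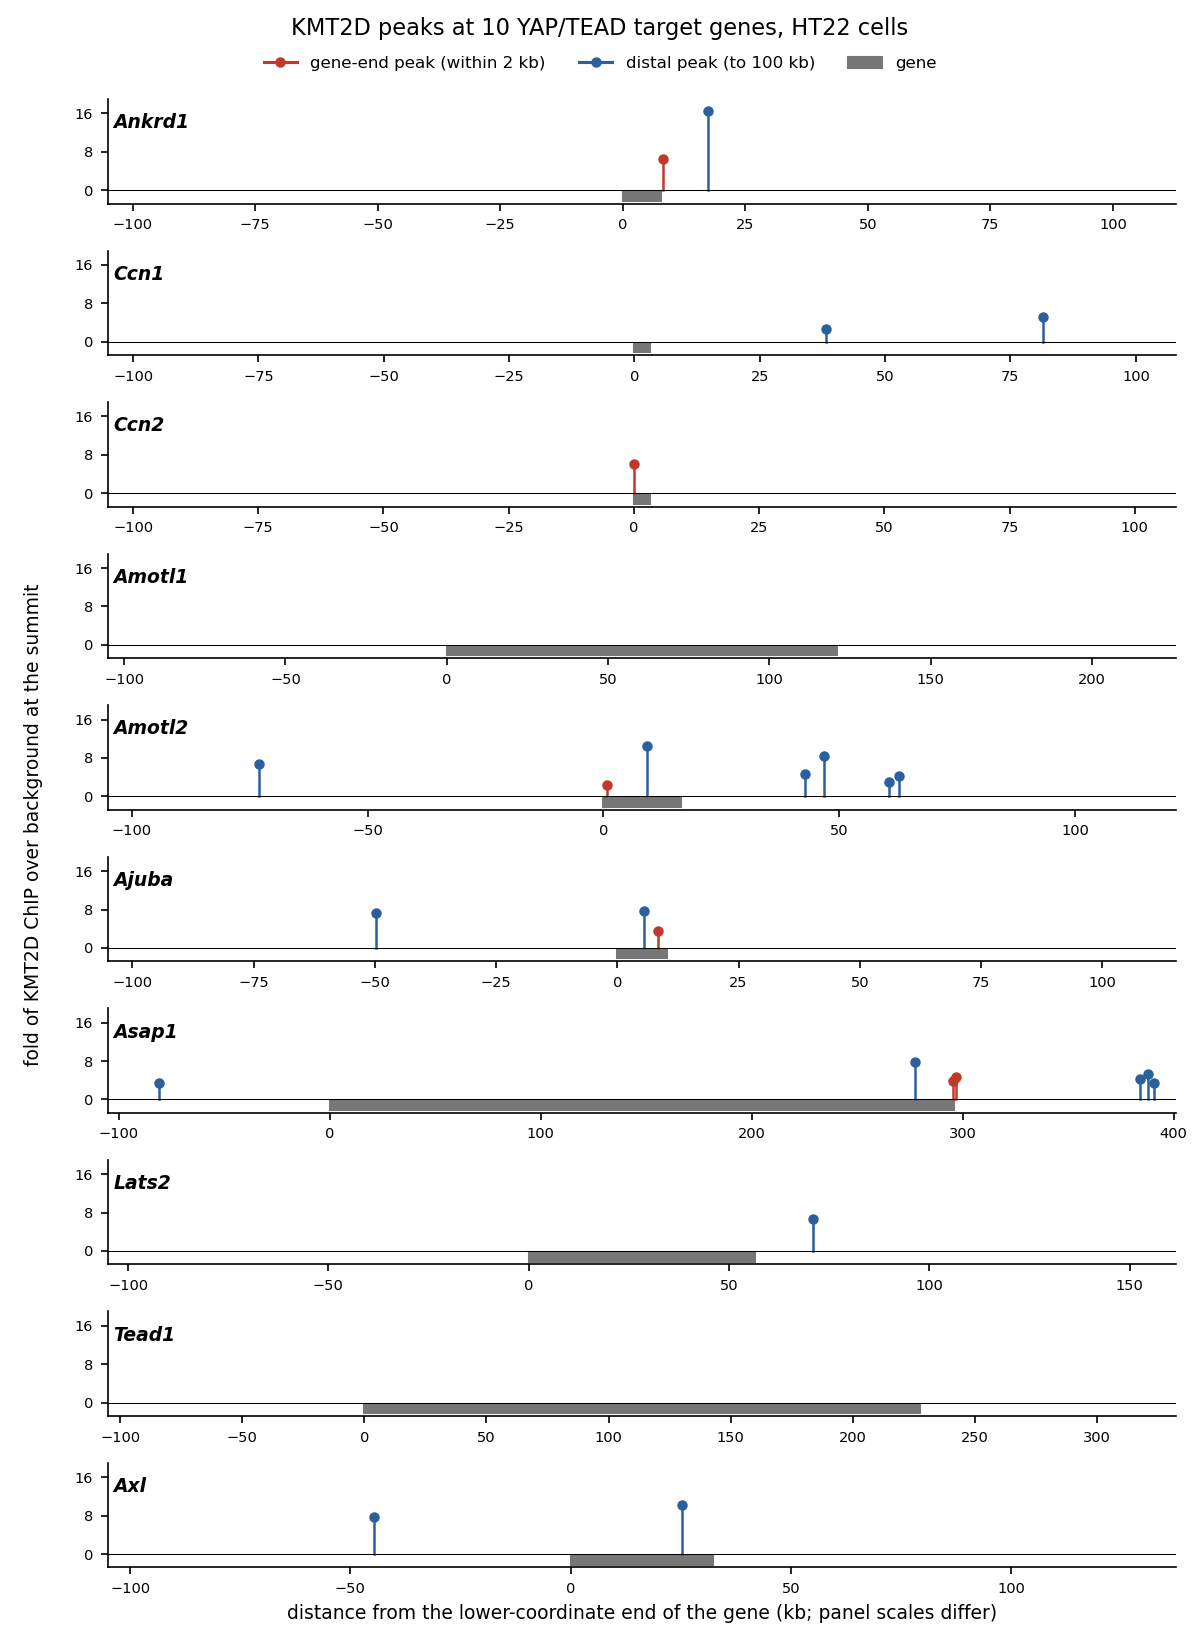
KMT2D peaks at each of the 10 genes: position of the summit in kb from the lower-coordinate end of the gene (horizontal, scales differ between panels) and fold over background (vertical), red for gene-end and blue for distal peaks, with the gene as a grey bar. Ankrd1 has its highest peak upstream, Amotl2, Ajuba, Asap1 and Axl have theirs inside the gene, and the panels of Amotl1 and Tead1 are empty.

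Among the genes that act back on the Hippo cascade, Amotl2 had many peaks and its paralog Amotl1 had none. Amotl2, an angiomotin that binds YAP and keeps it in the cytoplasm or at junctions, had 7 peaks in and around a gene of 16.3 kb (chr9:102717091-102733418). With Asap1 it was 1 of 2 among the 10 genes with 7 peaks or more, which 0.62% of all protein-coding genes had, and with Ajuba 1 of 3 with 3 or more, which 8.47% had. These shares are not matched for gene length, and 0.496 Mb was searched for Asap1 against 0.216 Mb for Amotl2. The highest Amotl2 peak, chr9:102726198-102726600, lay inside the gene 8603 bp downstream of the RefSeq start, with 55 ChIP fragments over 4.32 and a fold of 10.5 (7.97 to 13.6). The promoter peak, chr9:102717683-102717929, had 36 fragments over 14.3 and a fold of 2.42 (1.72 to 3.33), the lowest of the 25. The inside site thus had 4.34 times the fold of the promoter but 1.53 times its ChIP fragments, the background at the promoter being the highest at any of the 25 summits. After subtracting the background, the excess was 50.7 fragments inside the gene and 21.7 at the promoter.

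Beyond the far end of Amotl2 lay 4 more peaks, 26293, 30346, 44218 and 46263 bp outside the gene, with Amotl2 the nearest protein-coding gene of all 4. The second of these, chr9:102763467-102763912, was the strongest, with 65 fragments over 6.92 and a fold of 8.34 (6.46 to 10.6). The other 3 had folds of 4.70, 3.07 and 4.14. The third fell inside Gm46151, a long non-coding RNA gene, and the fourth 1106 bp from it. On the other side a peak 73068 bp from Amotl2, with a fold of 6.70 (4.62 to 9.43), lay nearer to Anapc13. Amotl1, the paralog of 121 kb at chr9:14541966-14662974, had no peak inside it or within 100 kb, the nearest being 176284 bp away.

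Ajuba, which encodes a LIM domain protein that binds LATS kinases at adherens junctions, had 2 peaks inside the gene (chr14:54567469-54577661) and 1 outside. The higher inside peak, chr14:54572797-54573197, lay 4666 bp downstream of the transcript start with 48 ChIP fragments over 5.35 and a fold of 7.71 (5.73 to 10.2). The second, chr14:54575651-54575882, counted as a gene-end peak at 1841 bp downstream, with 38 fragments over 9.94 and a fold of 3.56 (2.55 to 4.86). The 2 intervals do not overlap, but they take each background as given. The higher inside site had 1.26 times the ChIP fragments of the gene-end site, where the background was higher. The outside peak (7.35, interval 5.55 to 9.55) lay on the tRNA gene n-TRacg6, 272 bp from Prmt5 and 49727 bp from Ajuba.

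Lats2, which encodes 1 of the 2 LATS kinases and is induced by YAP, had a single peak, chr14:57760463-57761011. Its summit was 14515 bp upstream of the nearest RefSeq transcript start of Lats2 (gene at chr14:57689662-57746212) and 6445 bp from the predicted gene Gm52140. It had 43 fragments over 5.62 and a fold of 6.65 (4.85 to 8.90). Tead1, which encodes a TEAD factor itself, spans 227 kb at chr7:112679356-112906784 and had no peak inside it or within 100 kb. The nearest lay 244964 bp away.

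**Figure D3:**
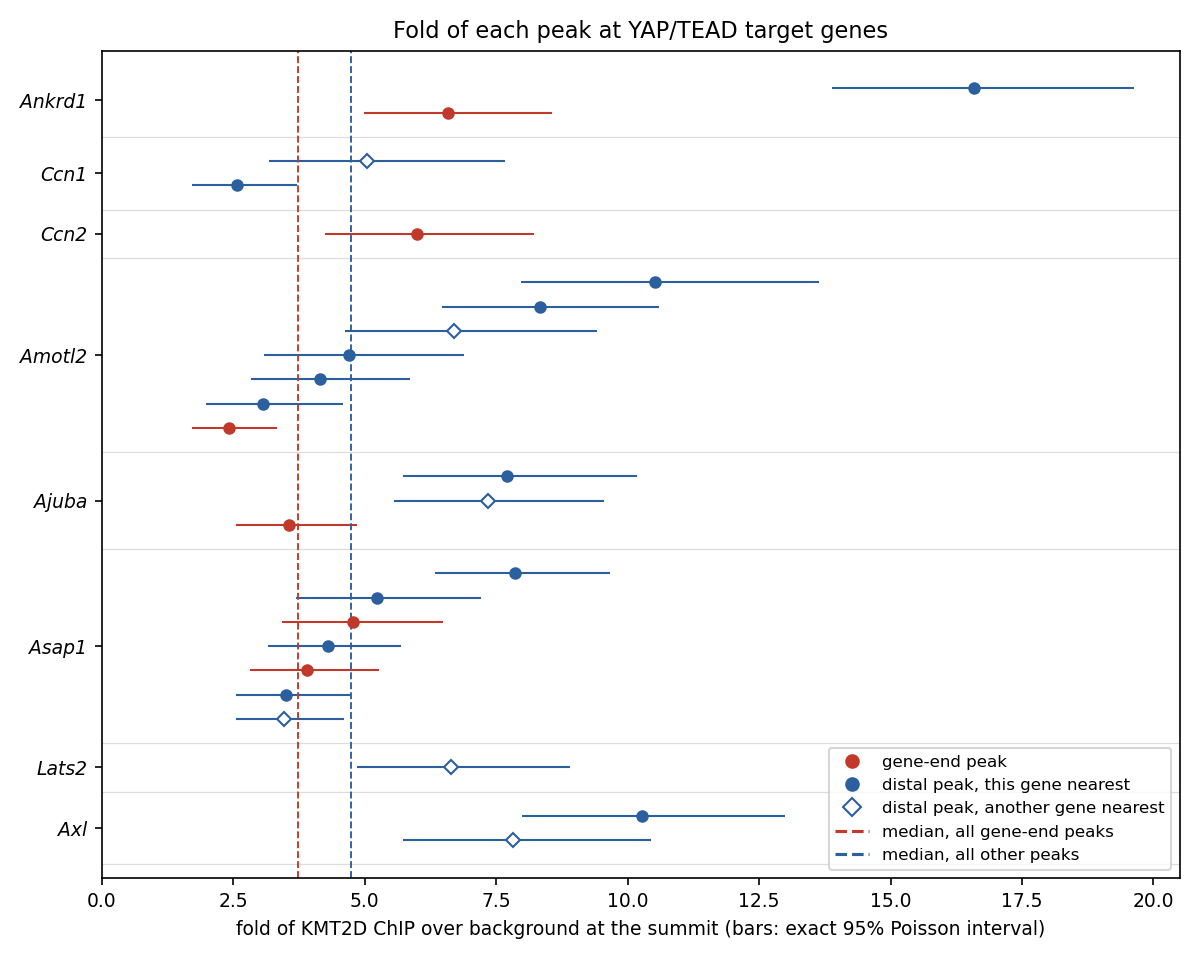
Fold over background of each of the 25 peaks (points) with its exact 95% Poisson interval (bars), grouped by gene, red for gene-end and blue for distal peaks, with open diamonds where another protein-coding gene is nearer; dashed lines mark the medians of all gene-end peaks (3.72) and all other peaks (4.73). In Ankrd1, Amotl2 and Ajuba the highest distal peak clears the interval of the gene-end peak, and in Asap1 the intervals overlap. The intervals take each background as given. In that order of genes, the highest distal peak had 2.44, 1.53, 1.26 and 2.28 times the ChIP fragments of the highest gene-end peak.

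Within the 10 genes, the median fold was lower at gene-end peaks than at distal ones, with ranges that overlapped. The 6 gene-end peaks had a median fold of 4.34 (range 2.42 to 6.59) and the 19 distal peaks one of 6.65 (2.57 to 16.6). For the 13 distal peaks with the named gene nearest, the median was 5.23. In the whole list the medians were 3.72 at gene ends and 4.73 elsewhere, so the 2 kinds stood in the same order. Both kinds were found at 4 of the 10 genes and at 2.93% of all protein-coding genes. All 4 had their highest fold at a distal one, and so did 467 of the 637 genes with both kinds in the whole list (73.3%). Read against that share, the order is not shown to be particular to these genes. The 4 distal peaks inside a gene, those of Amotl2, Ajuba, Asap1 and Axl, had folds from 7.71 to 10.5. All of them lay above 5.75, the 75th percentile of fold in the list. Among all protein-coding genes 4.2% had a peak inside and over 2 kb from both ends, and 1.44% had one above that percentile. Since peak heights were in view when the genes were named, these shares are given as background only.

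The fragments behind the peaks were recovered for all 25. ChIP pileups ran from 36 to 54 fragments at the 6 gene-end peaks and from 20 to 132 at the 19 distal peaks, with medians of 38.5 and 44. Backgrounds had medians of 8.44 at gene ends and 6.49 at distal peaks. None of the 25 reached a background of 20 fragments, the limit above which a peak was held in doubt. Peaks of 600 bp or more made up 3 of the 25 (Ankrd1, Axl and Asap1) and 6.96% of all peaks on chromosomes. Over the sequence searched, 2.77 Mb in all, the 10 genes had 9.01 peaks per Mb, against 2.84 for protein-coding genes at large, a difference that the choice of genes fixes in part. The figure at large counts each peak, and each stretch of sequence, again for every gene whose search window holds it. The 10 genes shared no peak.

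**Figure D4:**
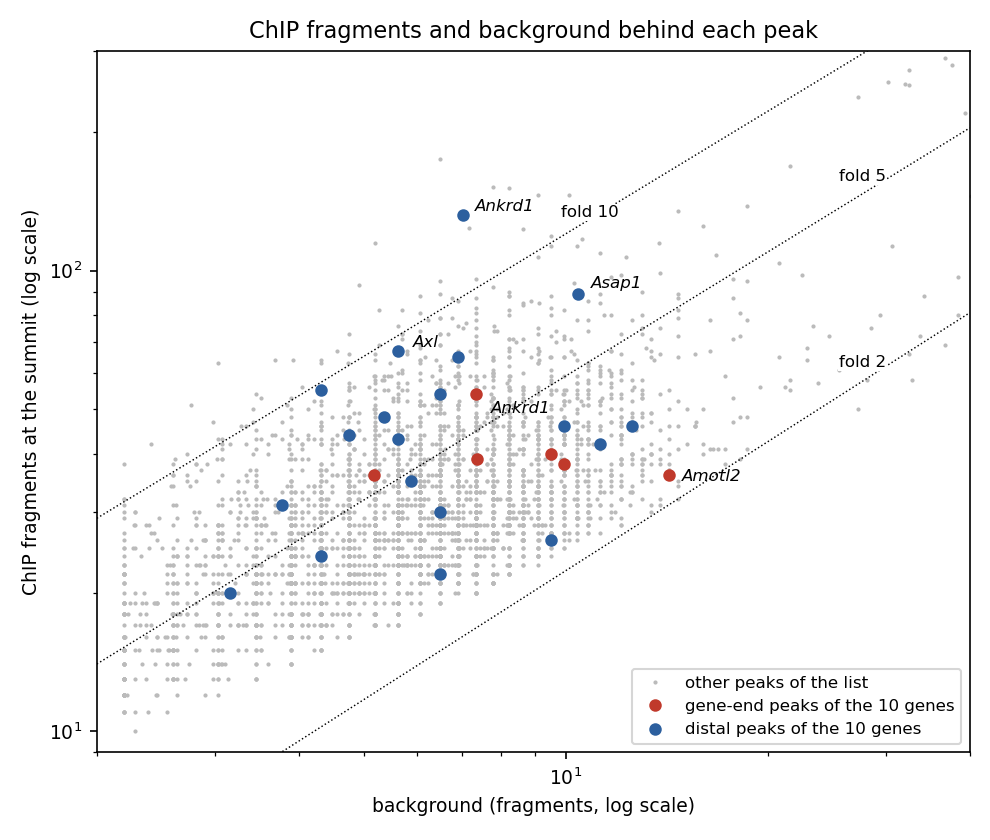
ChIP fragments at the summit (vertical, log scale) against background fragments (horizontal, log scale) for the peaks of the list, with the 6 gene-end (red) and 19 distal (blue) peaks of the 10 genes marked; dotted lines join points of equal fold, and peaks above 40 background or 300 ChIP fragments are off the axes. The Ankrd1 upstream peak stands above the line of fold 10 at 132 fragments, and the Amotl2 promoter peak sits far right at a background of 14.3.

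The assignment to genes leaned on distance alone. For 19 of the 25 peaks the named gene was the nearest protein-coding gene. The 6 others were the farther Ccn1 peak, the Anapc13-side peak of Amotl2, the tRNA peak near Ajuba, the Cyrib peak of Asap1, the only peak of Lats2 and the Ccdc97 peak of Axl. Near the limits of the rule, the Ajuba summit at 1841 bp (fold 3.56) fell inside the 2 kb window and the one at 4666 bp (7.71) outside it. At the outer limit, the Asap1 summit at 94392 bp (3.51) was counted, while summits 116002 bp from Ccn2 (3.39) and 136528 bp from Asap1 (3.54) were not.

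The other genes of the pathway had KMT2D peaks at shares whose intervals take in those of all protein-coding genes. Of 57 genes in 3 lists, 10 are the genes described above, and 4 of the other 47 had a gene-end peak (8.51%, exact 95% binomial interval 2.37 to 20.4, with 5.08% over all genes). Distal peaks were found for 17 of those 47 (36.2%, 22.7 to 51.5, with 33.7% over all genes). The 4 were Wwc2, a relative of the scaffold KIBRA, with a fold of 6.20 (4.30 to 8.67), Ptpn14, a phosphatase that binds YAP, with 3.41 (2.27 to 4.94), Crim1, a transmembrane regulator of BMP signals, with 3.16 (2.14 to 4.53), and F3, which encodes tissue factor, with 2.65 (1.79 to 3.79). Their summits lay 41 to 246 bp from a gene end.

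By role, the kinase cascade and its upstream regulators had 4 of 28 members with a gene-end peak (14.3%, with 5.08% over all genes). Ajuba and Amotl2 are 2 of these 4, and without the genes described above the count was 2 of 24 (8.33%). No peak within 100 kb was found for 15 of the 28, and for 64.2% of all protein-coding genes. The group of Yap1, Wwtr1, the TEAD and the VGLL genes had 0 of 10 with a gene-end peak. This allows a share of up to 30% (a limit of 3 counts of the total). The share over all genes, 5.08%, lies below that limit, so 10 genes are too few to set 0 apart from it. Any peak within 100 kb was found for 2 of these 10 genes (20%, with 35.8% over all genes). They were Wwtr1, which encodes TAZ, and Vgll4, which encodes a TEAD-binding corepressor. Both had their highest distal peaks inside the gene, at folds of 4.86 (3.26 to 6.998) and 6.28 (4.53 to 8.49), while Yap1 had no peak within 100 kb. A YAP/TAZ target signature of 22 genes had 7 with a gene-end peak (31.8%, with 5.08% over all genes). Of the 22 genes 7 are described above, among them Ankrd1, Ccn2, Amotl2 and Asap1, which were named with their peaks known. No interval is given for the 22 for that reason. Without those 7 the count was 3 of 15 (20%, 4.33 to 48.1), namely F3, Crim1 and Ptpn14.

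Paralogs of the 10 genes were set beside them by family. None of the 17 paralogs outside the 10 genes had a gene-end peak, which allows a share of up to 17.6% by the same limit of 3 counts, and 17 genes are likewise too few to set 0 apart from the 5.08% over all genes. Of these 17, 7 had any peak within 100 kb (41.2%, with 35.8% over all genes). In the CCN family, Ccn4 had a distal peak of fold 7.40 (5.50 to 9.76) 13415 bp outside the gene and Ccn5 one of 4.34 (2.85 to 6.38), while Ccn3 and Ccn6 had none. Limd1, a relative of Ajuba, had a peak of fold 7.58 (5.80 to 9.74) that lay nearer to Sacm1l, and Wtip had none. Asap2 had one of 3.90 (2.20 to 6.46) inside the gene, and the one assigned to Asap3, 3.47 (2.35 to 4.97), lay nearer to Hnrnpr. Mertk, the other TAM receptor with a peak, had one of 4.53 (3.08 to 6.44) inside the gene. Ankrd2 had 4 distal peaks, the highest at 5.29 (3.71 to 7.33), and none of them had Ankrd2 as the nearest gene. Amot, Lats1, Tead2, Tead3, Tead4, Tyro3 and Ankrd23 had no peak within 100 kb.

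**Figure D5:**
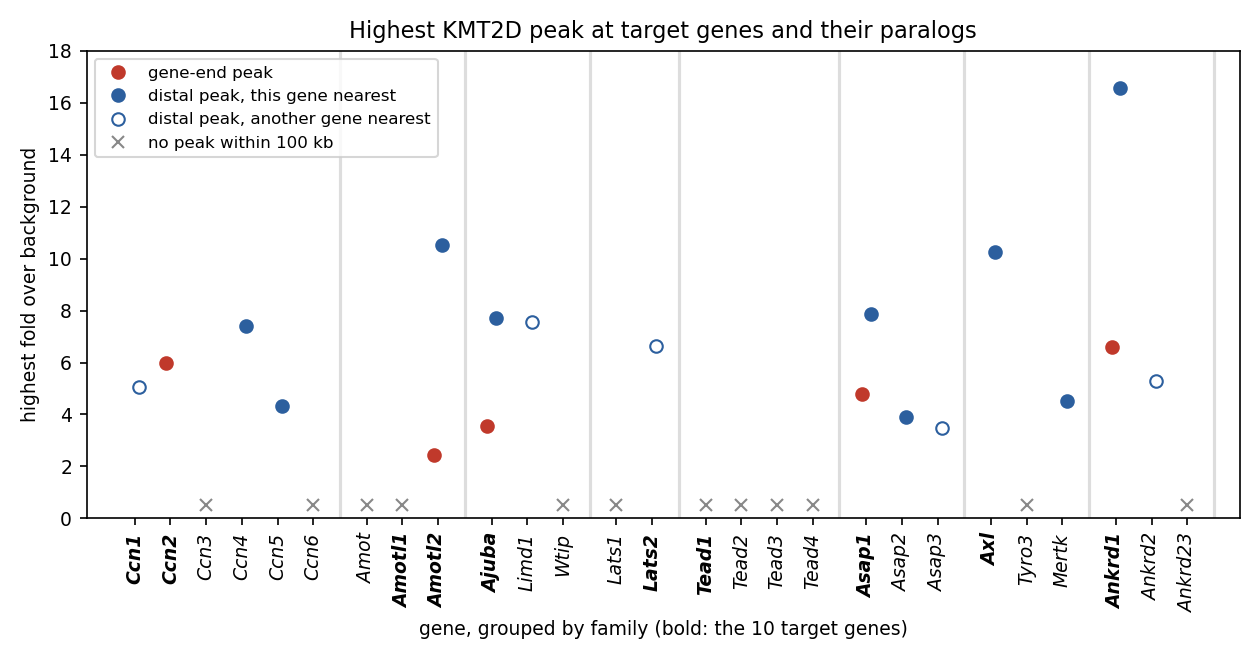
Highest fold over background (vertical) of the gene-end (red) and distal (blue) peaks at each of the 10 genes (bold) and their paralogs, grouped by family; open circles mark peaks nearer to another protein-coding gene, and crosses mark genes with no peak within 100 kb. Gene-end peaks appear at Ccn2, Amotl2, Ajuba, Asap1 and Ankrd1 and at 0 of the 17 paralogs outside the 10 genes, where 5.08% of all genes have one, and the TEAD family has crosses throughout.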

How the data were processed

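KMT2D ChIP and input libraries were compared by the authors, 1 of each, and the peak list they deposited is the only file used. Per the submitters' processing notes, Bowtie2, Picard and MACS2 were used on mm10, with versions and settings not given in the sources used here. For each peak the authors give a fold (the ratio of ChIP over background where the peak is highest) and p- and q-values on a −log10 scale, as deposited. The deposited score was not used. Library totals are not stated in the labels.

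ChIP pileup n and background b were solved for each peak from fold = (n + 1) / (b + 1) and the Poisson tail of n given b, for 3683 of 3738 peaks (98.5%) within 0.001 of the deposited −log10 p. Gene spans came from a RefSeq table of GRCm38.p6 (49595 of 49997 genes kept on main chromosomes; all 67 listed symbols matched), promoter sequences from RefSeq, same build. Exon and intron positions were not used here. The code was checked on simulated peaks made with the same equations and distance rule. That check cannot show that the solved fragments are those of the authors' peak calling. Python 3.11.15, pandas 2.3.3, scipy 1.17.1 and matplotlib 3.10.9 were used. With 1 library a side no test was run. The 10 genes and the gene lists were chosen with earlier results of these data known. Named genes were the 10 genes, listed genes with a gene-end peak, all paralogs and genes nearest to a peak of the 10. Vgll4, Wwtr1 and Yap1 were named after their values were seen. Alternatives were other windows, stricter peaks, and nearest-gene assignment.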

Additional observations from a re-analysis of the deposited data

How the results depend on the processing

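Of 31 recomputed values under other settings, 29 kept within 1.5 times the main count or, for medians, within the counting interval of 1 peak. That peak was the one with the fold closest to the main median, and its interval does not measure the spread of a median. The 2 that moved were the number of the 10 genes with a gene-end peak, 5 with all peaks, which was 3 when only peaks from the median −log10 q of the authors' deposited table upward were kept (share over all genes 1.72%) and 2 when only peaks above the 75th percentile in fold were kept (0.657%). The stricter lists hold fewer peaks by construction. The number with a distal peak, 7 with all peaks (33.7% of all genes), was 7 at 50 kb and 9 at 200 kb (22% and 48.5% of all genes), and 6 with each of the stricter lists (20.4% by −log10 q in the authors' deposited table, 12% by fold) and with nearest-gene assignment (7.54%). The median distal fold ran from 5.14 (200 kb window) to 7.71 (50 kb). With each peak given only to its nearest protein-coding gene, distal peaks numbered 13, with a median fold of 5.23, and Lats2 had none left. The list of 57 genes, the 10 included, had 8 with a gene-end peak at 1 kb and 11 at 5 kb (3.94% and 7.06% of all genes). The depth behind the weakest peaks, 20 to 26 ChIP fragments, gives intervals more than 2-fold wide. No paired analysis was possible because there was 1 library of each kind.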
